A study of Danio rerio with 12 samples.

Results

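Claudins are multi-pass membrane proteins that form the strands of tight junctions, the contacts that close the gap between neighbouring cells of an epithelium or an endothelium. Each claudin either seals that gap or opens it to particular ions, and the set of claudins a tissue expresses sets how tight its barrier is. In zebrafish, cldn5b is known as a claudin of blood vessel endothelium, whereas cldn5a lines the neural tube and brain ventricle, and cldnb, cldne and cldni are claudins of the skin and other surface epithelia.

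Claudin genes were taken as every row whose symbol begins with cldn in any letter case, which gave 37 of 31172 rows at each stage, and 0 of them had equal values in all 6 libraries. The name alone decided membership, so CLDND1 (1 of 2) and CLDND1 (2 of 2), which encode claudin-domain proteins outside the classical family, are included. A further 7 rows that carry a claudin symbol today but another name in the tables are not included. RNA was sequenced from whole zebrafish embryos in which a 2A-Gal4 cassette was inserted at etv2, whose product, an ETS transcription factor, drives early endothelial and blood development. Homozygous embryos (2 copies of etv2 Gt(2A-Gal4)ci32) were compared with heterozygous ones (1 copy) at the 15-somite stage, raised at 24 °C, and at 24 hpf (hours post fertilization), raised at 28 °C. All embryos came from crosses of carriers that also had a UAS:GFP reporter and were told apart by their GFP pattern, so heterozygotes carry the insertion too and no wild-type embryos served as controls. Each library pooled 15 to 20 whole embryos, with 3 libraries per genotype and stage and 12 in all.

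The deposited values are log2 values relative to each gene's own median within its stage, so they hold no absolute level. Levels are given below as a percentage of the heterozygous geometric mean of the same stage (3 libraries). A difference is the homozygous mean minus the heterozygous one in log2 units, with its standard error (SE), and a gene is said to have fallen or risen where its p from limma, adjusted by the Benjamini-Hochberg method over every tested row, lay below 0.05. The homozygous libraries of the 15-somite stage are called hom 2, a and b, since the columns of a and b share 1 name, and all others are called by their number. As a check of the labels, etv2 stood at 12.9% to 16.3% in homozygous libraries at the 15-somite stage, against 96.7% to 106% in heterozygous ones, and at 7.40% to 14.0% in homozygous libraries at 24 hpf, against 99.2% to 101% in heterozygous ones. Of the 37 claudin rows, 26 at the 15-somite stage and 29 at 24 hpf had a median of at least 16 normalized units before centring and were tested. Since the embryos were sequenced whole, fewer cells of a type and less RNA per cell cannot be told apart.

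The endothelial claudin cldn5b (ENSDARG00000014059) was far lower in homozygotes at both stages. At the 15-somite stage it stood at 6.66%, 14.1% and 4.87% in hom 2, a and b, against 100%, 95.6% and 104% in het 1, 2 and 3. The genotype groups lay far apart, and hom a was the highest of the homozygous libraries. Its difference was -3.70 (SE 0.34, adjusted p = 0.00431), 13-fold lower, with a 95% interval of 4.4% to 13.5% of the heterozygous level. At 24 hpf cldn5b stood at 14.6%, 20.0% and 13.4% in hom 1, 2 and 3, against 94.3%, 101% and 105% in het 1, 2 and 3. The groups were again far apart, and it fell by 2.66 (SE 0.14, 6.34-fold, adjusted p = 0.000702), with an interval of 12.5% to 19.9%. The homozygous library with the lowest etv2 at 24 hpf, hom 2 at 7.40%, had the highest cldn5b. At the 15-somite stage hom b, with the lowest etv2 at 12.9%, had the lowest cldn5b. There hom a, close to it in etv2 at 13.3%, had the highest cldn5b, and hom 2, with the highest etv2 at 16.3%, lay between. A relation between the levels of these genes across libraries was not tested. The fall of cldn5b passed without each library in turn at both stages, with differences of -4.13 to -3.37 at the 15-somite stage and of -2.84 to -2.55 at the later one.

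**Figure D1:**
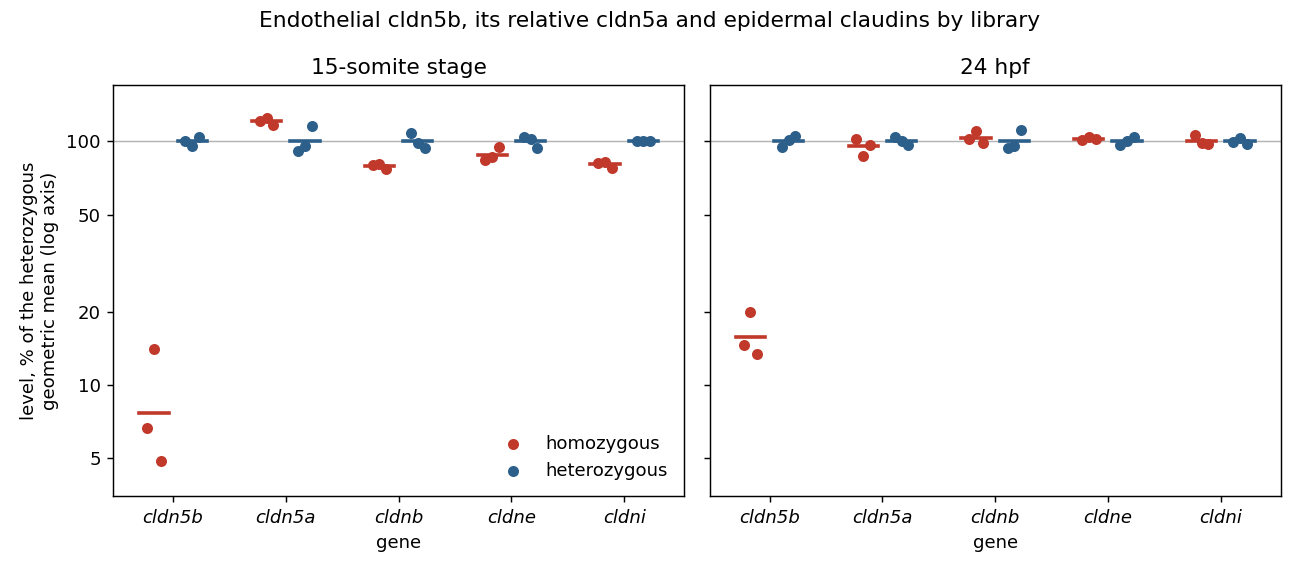
Level of 5 claudin genes in each library, as a percentage of the heterozygous geometric mean of the stage (log axis), with homozygous libraries left of heterozygous ones; points are libraries and bars are geometric means of 3. cldn5b lies at 4.87% to 20.0% in all 6 homozygous libraries, while the epidermal claudins cldnb, cldne and cldni lie at 77.1% to 94.2% in homozygotes at the 15-somite stage and at 97.0% to 110% at 24 hpf.

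The fall of cldn5b went along with other endothelial genes. Of 9 endothelial markers tested (cdh5, kdrl, tie1, flt1, clec14a, fli1a, esama, egfl7 and she), 9 fell at the 15-somite stage with a median difference of -2.38, where 3.73% of all rows tested fell. At 24 hpf 6 fell, with a median of -1.11, where only 0.343% of all rows fell. Among those that fell at both stages was esama (-0.83 and -1.07), which encodes an endothelial adhesion molecule of cell contacts. It was the only marker of the list with the larger difference at 24 hpf. The markers not called at 24 hpf were cdh5 (-4.76 at the 15-somite stage and -1.28 at 24 hpf), fli1a (-1.10 and -0.39) and egfl7 (-0.97 and -0.41). The marker list averaged 11.4% to 16.3% of the heterozygous level in homozygous libraries at the 15-somite stage, against 94.3% to 112% in heterozygous ones, and 34.0% to 39.8% in homozygous libraries at 24 hpf, against 95% to 105% in heterozygous ones. At the 15-somite stage 4 of the 9 markers had larger falls than cldn5b, and at 24 hpf 2 had (tie1 at -2.91 and flt1 at -2.80). Among all genes called lower, cldn5b had the 14th largest fall of 688 at the 15-somite stage and the 16th largest of 65 at 24 hpf. The part of a lower number of endothelial cells in this was not tested.

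The genotype difference of cldn5b was smaller in size at 24 hpf than at the 15-somite stage, but the change did not pass after adjustment. The difference between the stages was 1.03 (SE 0.40, unadjusted 95% interval 0.16 to 1.91). By limma's interaction test over all rows tested at both stages, p was 0.0239 before adjustment and 0.184 after it. Of all those rows, 19.1% had an unadjusted p below 0.05. Rearing temperature differed along with stage, so stage and temperature cannot be told apart in such a change. Without hom a of the 15-somite stage, the library with the highest homozygous level, the difference was 1.47 and passed, with adjusted p = 0.0107, and it did not pass without any other library.

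Its closest named relative, cldn5a (ENSDARG00000043716), known from the lining of the neural tube, did not fall. At the 15-somite stage it stood at 121%, 124% and 117% in hom 2, a and b, against 90.9%, 95.5% and 115% in het 1, 2 and 3. The groups did not overlap and homozygotes were higher, but the difference of 0.27 (SE 0.10, interval 0.04 to 0.49) did not pass (adjusted p = 0.174). At 24 hpf it stood at 102%, 87.2% and 96.6% in hom 1, 2 and 3, against 104%, 99.8% and 96.5% in het 1, 2 and 3, with overlapping groups and a difference of -0.07 (SE 0.07, interval -0.24 to 0.09, adjusted p = 0.902). Beside this, the list of 8 neural markers averaged 109% to 117% in homozygous libraries at the 15-somite stage, against 98.3% to 101% in heterozygous ones, and 94.3% to 96.5% in homozygous libraries at 24 hpf, against 98.6% to 101%, with 0 of 8 called by limma at either stage. Among all rows tested, 4.71% were called either way at the earlier stage and 0.39% at the later one. At an unadjusted p below 0.05, 3 neural markers were higher at the 15-somite stage, next to 9.75% of all rows tested. By the same limit 1 neural marker was lower at 24 hpf, next to 4.05% of all rows. Markers of the notochord (5 genes) averaged 111% to 114% in homozygous libraries at the 15-somite stage, against 93.1% to 107% in heterozygous ones. Such values were thus not particular to the neural list. The part of the neural markers in the cldn5a values was not tested. The change of the cldn5a difference between stages, -0.34 (SE 0.12), did not pass (adjusted p = 0.151), except without het 3 of the 15-somite stage (-0.44, adjusted p = 0.0429).

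At the 15-somite stage 2 of the 3 epidermal claudins, cldni and cldnb, fell slightly in homozygotes, where 3.73% of all rows tested fell. cldni (ENSDARG00000054616) stood at 81.0%, 82.4% and 77.9% in hom 2, a and b, against 99.8%, 99.8% and 100% in het 1, 2 and 3. cldnb (ENSDARG00000009544), which also marks the migrating lateral line primordium, stood at 79.5%, 80.3% and 77.1% in hom 2, a and b, against 108%, 98.5% and 93.9% in het 1, 2 and 3. In neither gene did the groups overlap, where 15.7% of all rows tested were lower without overlap. The homozygous libraries of each gene lay within a few percent of each other. Both fell, cldni by 0.31 (SE 0.06, 1.24-fold, adjusted p = 0.0291) and cldnb by 0.34 (SE 0.07, 1.27-fold, adjusted p = 0.0444). cldne (ENSDARG00000043128), a claudin of the outer cell layer of the skin, stood at 83.5%, 85.8% and 94.2% in hom 2, a and b, against 104%, 102% and 94.1% in het 1, 2 and 3. Its groups met at hom b and het 3, and its difference of -0.19 (SE 0.08, interval -0.37 to -0.01) did not pass (adjusted p = 0.203).

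The calls of cldni and cldnb lie close to the threshold. Without hom 2, hom a, hom b, het 2 or het 3, cldni had adjusted p = 0.0898, 0.0914, 0.113, 0.0971 and 0.0768, and it passed without het 1 (adjusted p = 0.0487); cldnb did not pass whichever library was left out (adjusted p 0.0631 to 0.151), while the differences stayed between -0.33 and -0.29 for cldni and between -0.39 and -0.28 for cldnb. With 1 prior spread for all level classes the adjusted p was 0.0749 for cldni and 0.0982 for cldnb, and with no filter on level it was 0.0571 for cldnb.

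Genes of the epidermis outside the claudin family were lower in the same libraries. Of 11 epidermis markers 6 fell at the 15-somite stage, where 3.73% of all rows tested fell. They were the keratin genes cyt1 (-0.59), cyt1l (-0.55) and krt4 (-0.35), icn (-0.69), anxa1c (-0.55) and EPCAM (-0.36), an epithelial adhesion gene. The median of the list, all of whose members were negative, was -0.35, against 0.0038 over all 18424 rows tested. The list averaged 73.9% to 79.9% in homozygous libraries, against 97.8% to 102% in heterozygous ones, next to 81.3% to 82.8% in homozygous and 96.1% to 104% in heterozygous libraries for the 3 epidermal claudins. Markers of ionocytes, the ion-transporting cells of the skin, averaged 59.7% to 70.4% in homozygous and 96.7% to 104% in heterozygous libraries. Of these markers 2 of 5 were called lower, next to the same 3.73% of all rows. The part of a smaller share of epidermal RNA in the claudin differences was not tested.

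**Figure D2:**
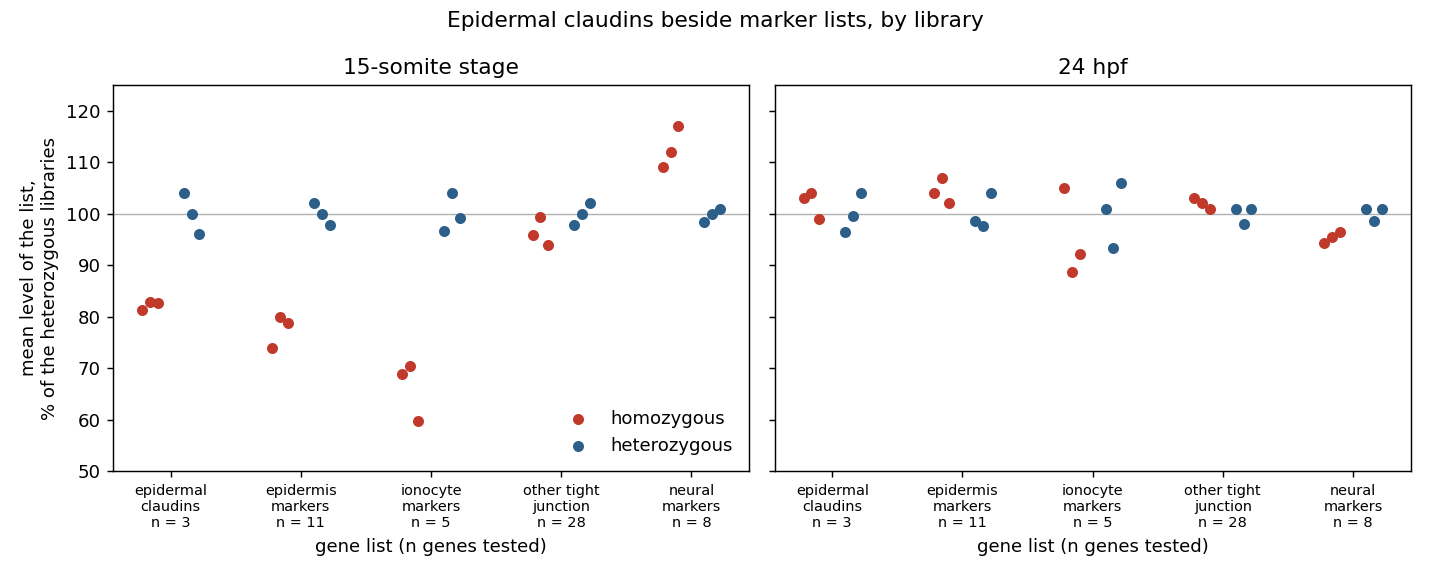
Mean level of the 3 epidermal claudins beside lists of epidermis, ionocyte, other tight junction and neural genes in each library, as a percentage of the heterozygous libraries of the stage; homozygous libraries stand left of heterozygous ones and each point is 1 library. At the 15-somite stage the epidermal claudins lie at 81.3% to 82.8% and the epidermis markers at 73.9% to 79.9% in homozygotes, and at 24 hpf both lie at 99% to 107%.

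At 24 hpf the epidermal claudins did not differ detectably. cldni stood at 106%, 98.6% and 97.0% in hom 1, 2 and 3, against 99.3%, 103% and 97.7% in het 1, 2 and 3, with a difference of 0.00 (SE 0.06, interval -0.13 to 0.14, adjusted p = 0.994). cldnb stood at 102%, 110% and 98.4% in hom 1, 2 and 3, against 94.0%, 95.6% and 111% in het 1, 2 and 3, with a difference of 0.04 (SE 0.08, interval -0.15 to 0.24). cldne stood at 101%, 104% and 102% in hom 1, 2 and 3, against 96.0%, 100% and 104% in het 1, 2 and 3, with a difference of 0.03 (SE 0.05, interval -0.09 to 0.16). The genotype groups overlapped in all 3 genes. Of the 11 epidermis markers 0 were called by limma at 24 hpf, where only 0.39% of all rows tested were called. At an unadjusted p below 0.05, 1 was lower and 1 higher, next to 4.05% and 3.18% of all rows. The list averaged 102% to 107% in homozygous and 97.7% to 104% in heterozygous libraries.

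Over the claudins tested at both stages, the change of the genotype difference from the 15-somite stage to 24 hpf passed for cldni, at 0.32 (SE 0.07, interval 0.16 to 0.48, adjusted p = 0.0337), where 3.73% of all 17718 rows passed, 0.988% with a negative change and 2.74% with a positive one. For cldnb the change was 0.39 (SE 0.11, adjusted p = 0.0688), and it passed without het 3 of 24 hpf (0.46, adjusted p = 0.0416). For cldne it was 0.22 (SE 0.09, adjusted p = 0.191). The call of cldni passed when het 1 of the 15-somite stage or hom 3 of 24 hpf was left out, and did not pass without any 1 of the other 10 libraries (adjusted p 0.0523 to 0.0880), with the change between 0.28 and 0.34 throughout. With 1 prior spread the call was also lost (adjusted p = 0.0636). Stage and rearing temperature cannot be told apart in these changes.

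**Figure D3:**
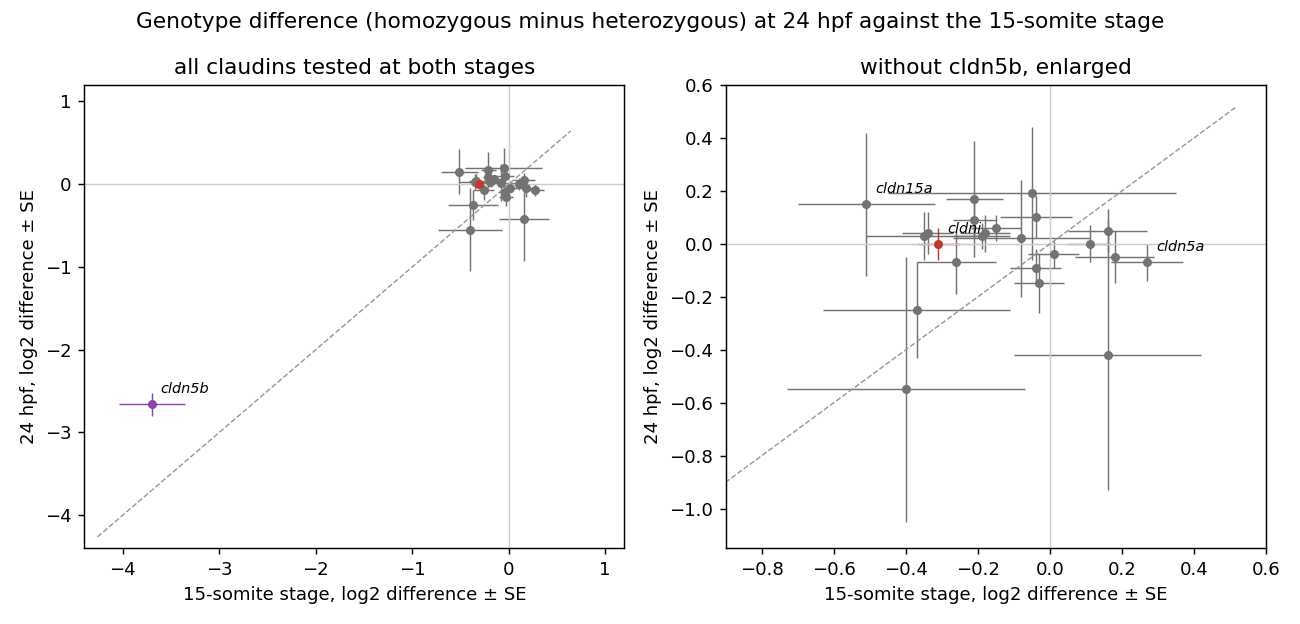
Genotype difference of each claudin tested at both stages, with the 15-somite stage on the horizontal and 24 hpf on the vertical axis (log2, homozygous minus heterozygous, bars are SE; the dashed line marks equal differences), for all genes at left and without cldn5b at right. cldn5b lies alone at -3.70 and -2.66, and cldni (red) lies at -0.31 and 0.00.

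Across the claudin family, 3 of 26 tested rows fell at the 15-somite stage, cldn5b, cldnb and cldni, where 3.73% of all rows tested fell, and 0 rose by limma, where 0.977% of all rows rose and 4.71% changed either way. At an unadjusted p below 0.05, 9 claudins were lower and 1 (cldn5a) was higher, next to 12.1% and 9.75% of all rows tested. The genotype groups did not overlap in 9 claudins that were lower and 2 that were higher in homozygotes, where 15.7% and 13.5% of all rows tested did the same. Of the 26 rows 19 lay below 0, against 49.3% of all rows tested, and the median was -0.16 with cldn5b and -0.15 without it.

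Claudins of the gut and of epithelial tubes were among the lower ones at the 15-somite stage, without a call. cldn15a (ENSDARG00000036463), known for its part in opening the gut lumen, stood at 70.1%, 82.0% and 60.6% in hom 2, a and b, against 89.9%, 105% and 106% in het 1, 2 and 3. Its groups did not overlap and its difference was -0.51 (SE 0.19, adjusted p = 0.181). The 3 endoderm and gut markers tested averaged 48.4% to 64.8% in homozygous libraries, against 91.7% to 112% in heterozygous ones. Of these markers fabp2 was called lower (-1.74), next to 3.73% of all rows tested, while foxa3 (-0.45) and foxa2 (-0.18) were not called. The part of these markers in the cldn15a values was not tested. cldn2, whose mammalian counterpart forms a cation pore in leaky epithelia, stood at 92.5%, 66.5% and 82.9% in hom 2, a and b, against 98.8%, 99.4% and 102% in het 1, 2 and 3, and its difference of -0.32 (SE 0.19) did not pass (adjusted p = 0.361). cldnc (current symbol cldn3d), of the claudin-3 type, stood at 85.4%, 82.1% and 91.3% in hom 2, a and b, against 109%, 95.2% and 96.5% in het 1, 2 and 3, with a difference of -0.21 (SE 0.08, adjusted p = 0.178). In both genes the groups were separate, and in neither did the difference pass the test.

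Other claudins of higher level, outside the rule for named genes and picked with their values in view, included several that were lower in homozygotes at the 15-somite stage without a call. cldn7b, whose mammalian counterpart pairs with EPCAM in epithelia, stood at 83.5%, 88.5% and 87.9% in hom 2, a and b, against 96.1%, 104% and 100% in het 1, 2 and 3. CLDN23 (1 of 2) (current symbol cldn23.1) stood at 84.2%, 89.9% and 91.5% in hom 2, a and b, against 104%, 101% and 95.2% in het 1, 2 and 3. Both were lower in homozygotes without overlap, and neither passed, at -0.21 (SE 0.06, adjusted p = 0.119) and -0.18 (SE 0.07, adjusted p = 0.189). cldn1, whose mammalian counterpart seals the epidermal barrier, stood at 83.7%, 70.2% and 81.7% in hom 2, a and b, against 124%, 100% and 80.1% in het 1, 2 and 3, with overlap and a difference of -0.35 (SE 0.16, adjusted p = 0.25). At 24 hpf cldn7b, CLDN23 (1 of 2) and cldn1 stood at 0.09, 0.04 and 0.03, with overlapping groups in each. The claudin-domain genes CLDND1 (1 of 2) and CLDND1 (2 of 2) lay on the other side of 0 at the 15-somite stage, at 0.18 and 0.16 (SE 0.11 each), and at -0.05 and 0.05 at 24 hpf. cldn11b and the row named cldnj, whose gene ID now carries the symbol zgc:153990 so that its identity is uncertain, stayed close to 0 at both stages, at -0.04 and 0.01 at the 15-somite stage and at -0.09 and -0.04 at 24 hpf.

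By role, 0 of 2 gut claudins, 0 of 3 claudins of epithelial tubes and 0 of 2 myelin claudins tested at the 15-somite stage were called by limma, where 4.71% of all rows were called. At an unadjusted p below 0.05, 1 gut and 1 tube claudin were lower, next to 12.1% of all rows. The medians were -0.45, -0.32 and 0.06. Of 8 tube names 4 were found and 3 tested (cldn7b, cldn2 and cldn19). Rows of the claudin-10 type lie outside that list. CLDN10 (1 of 2) stood at -0.05 (SE 0.40) and cldn10l2 at 1.07 (SE 0.49), neither called, and cldn10, too low to test, at -0.84. Markers of the pronephros, the embryonic kidney tube, averaged 84.2% to 90.3% in homozygous libraries, against 95.6% to 104% in heterozygous ones. Of these markers 1 of 5 was called lower (atp1a1a.4, -0.54), next to 3.73% of all rows tested. Another 2 of 5 lay above 0 without a call (pax2a at 0.19 and pax8 at 0.14). The 3 tested tube claudins averaged 78.5% to 85.3% in homozygous and 89.1% to 107% in heterozygous libraries. The part of the pronephros in those values was not tested.

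Claudin genes that are neighbours on a chromosome can be set side by side, using RefSeq's gene order in assembly GRCz12tu, which placed 31 of the 37 rows. In 1 group of neighbours lie cldnh (current symbol cldn3c), cldnc, cldnb and cldnd. At the 15-somite stage the first 3 stood at -0.15, -0.21 and -0.34. Homozygotes were lower without overlap in each, as in 15.7% of all rows tested. Of these 3, cldnb was called by limma, and cldnh and cldnc were not (adjusted p = 0.296 and 0.178). The level of cldnd was too low for a test. It stood at 61.4%, 59.1% and 49.0% in hom 2, a and b, against 138%, 83.2% and 87.0% in het 1, 2 and 3, without overlap. The share of 15.7% holds for tested rows only and was not counted for rows as low as cldnd. In the other group lie cldne, cldnf and cldna, at -0.19, -0.26 and -0.03, and none of these 3 passed. At 24 hpf cldnh, cldnc and cldnb stood at 0.06, 0.17 and 0.04, and cldne, cldnf and cldna at 0.03, -0.07 and -0.15. cldn12 is the only placed claudin on the chromosome of etv2, within 5 Mb of it, and stood at 105%, 111% and 107% in hom 2, a and b, against 102%, 96.5% and 101% in het 1, 2 and 3, a separation of groups with a difference of 0.11 (SE 0.06) that did not pass (adjusted p = 0.364); at 24 hpf its groups overlapped.

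**Figure D4:**
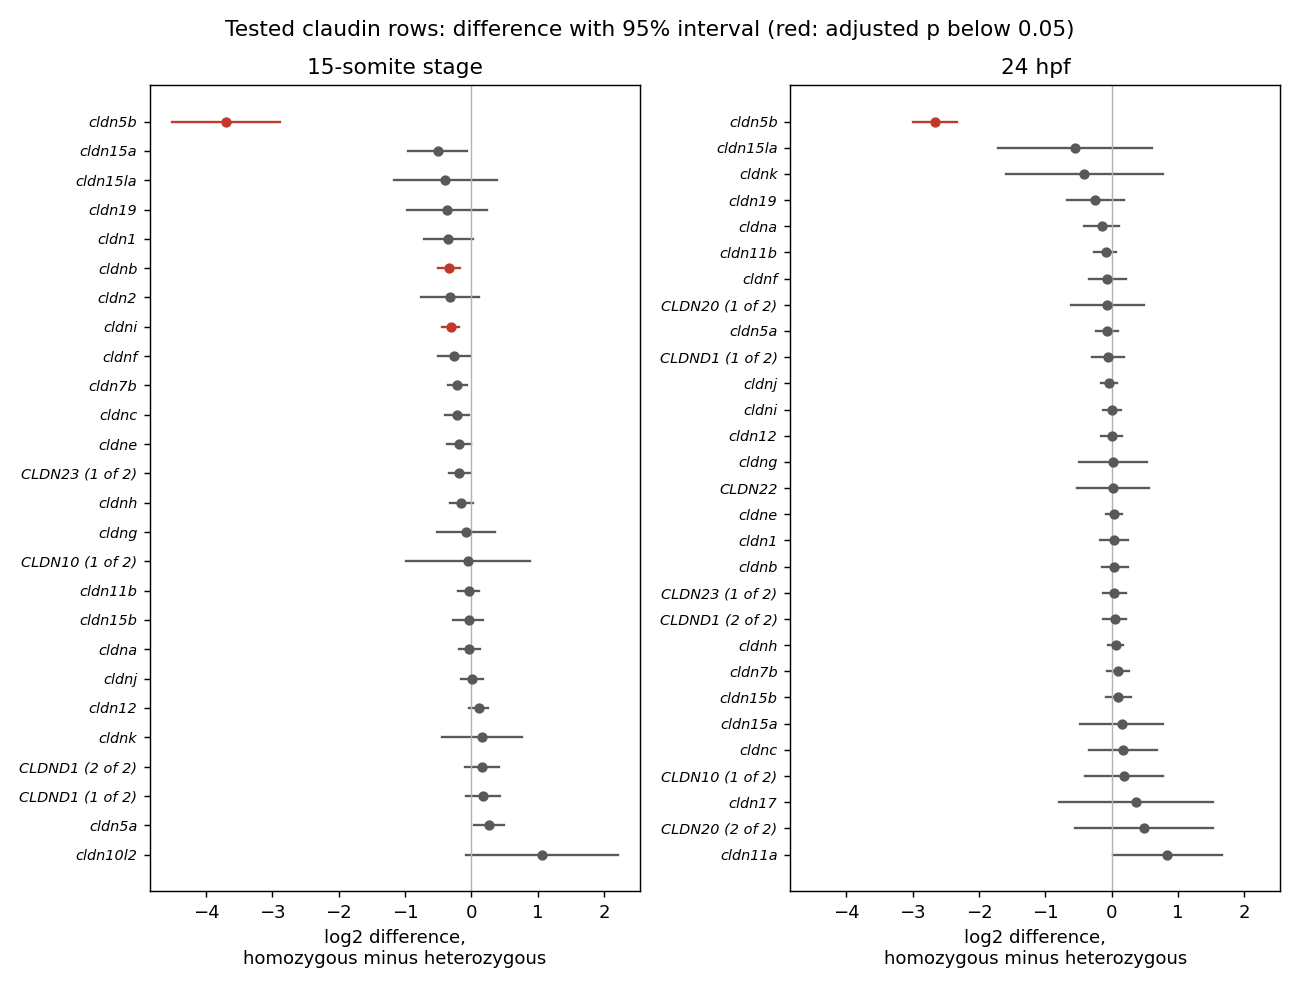
Difference of each tested claudin row (log2, homozygous minus heterozygous) with its 95% interval, ordered by size, at the 15-somite stage (26 rows) and at 24 hpf (29 rows); red marks rows with adjusted p below 0.05. cldn5b lies at -3.70 and -2.66, apart from every other row of its panel, and the other called rows are cldnb at -0.34 and cldni at -0.31.

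At 24 hpf cldn5b was the 1 claudin of 29 that fell, where 0.343% of all 18970 rows fell, and 0 rose by limma, where 0.0474% of all rows rose. At an unadjusted p below 0.05, cldn5b was lower and cldn11a higher, next to 4.05% and 3.18% of all rows. The groups did not overlap in 1 claudin that was lower and 2 that were higher, where 6.52% and 6.34% of all rows did the same. These 2 were cldn11a, whose mammalian counterpart is a claudin of myelin, and cldnh. cldn11a stood at 207%, 162% and 171% in hom 1, 2 and 3, against 116%, 154% and 56.1% in het 1, 2 and 3, with homozygotes higher throughout but a wide spread among heterozygotes, and its difference of 0.84 (SE 0.35) did not pass (adjusted p = 0.687). cldnh stood at 107%, 104% and 103% in hom 1, 2 and 3, against 101%, 99.2% and 100% in het 1, 2 and 3, a difference of 0.06 (SE 0.05, adjusted p = 0.848). Of the 29 rows 12 lay below 0, against 49.7% of all rows tested, and the median was 0.02, against 0.00081 over all rows.

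The precision of the null results depends on level. Among tested claudins of the highest level class other than cldn5b, SE ran from 0.06 to 0.16 at the 15-somite stage, and 14 of 17 had an interval within 0.5 of 0 on the log2 scale. At 24 hpf 16 of 17 did, the exception being CLDN20 (2 of 2), whose heterozygous libraries ran from 56.5% to 215% and whose level class, read from the stored digits alone, may be wrong. In the tested class below it SE ran from 0.19 to 0.49 at the 15-somite stage and from 0.18 to 0.51 at 24 hpf. There 0 of 8 and 0 of 11 intervals lay within 0.5 of 0. Changes of that size in either or both directions were thus not excluded for cldn15la (known from gut), cldnk (known from myelinating glia) and cldn19. The tested claudins not named by their values comprised 16 rows at -0.40 to 1.07 at the 15-somite stage and 19 rows at -0.55 to 0.49 at 24 hpf. The highest of these, cldn10l2 at 1.07 (SE 0.49, adjusted p = 0.260), was named after its values were seen, and its groups overlapped, at 270%, 191% and 179% in hom 2, a and b, against 116%, 45.4% and 191% in het 1, 2 and 3. The rows too low to test, 11 at the 15-somite stage and 8 at 24 hpf, had differences from -1.21 to 0.65 and from -0.67 to 0.61. Among them the groups did not overlap in cldnd at both stages, lower in homozygotes, and in cldn10 at 24 hpf, higher in homozygotes. The share without overlap among all rows too low to test was not counted. These separations are therefore not read as changes.

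Tested members of a list of other tight junction genes differed by -0.27 to 0.30 at the earlier stage and by -0.20 to 0.26 at the later one. SE reached 0.26, for MARVELD3 at the earlier stage and jam3a at 24 hpf, so larger changes in these members were not excluded. The adhesion molecule gene esama, counted above with the endothelial markers, was not on this list. It fell at both stages (-0.83 and -1.07). Of 35 names of occludins, scaffold proteins, junctional adhesion molecules and polarity proteins, 28 separate rows were found and tested at each stage. At the 15-somite stage f11r, a junctional adhesion molecule gene, fell by 0.27 (SE 0.06, adjusted p = 0.0493), and no other member passed, where 3.73% of all rows fell. The call of f11r lies close to the threshold and was not followed through the alternative settings. At an unadjusted p below 0.05, 5 members were lower and 1 was higher, next to 12.1% and 9.75% of all rows. Of the 28 rows 18 lay below 0, against 49.3% of all rows tested, and the median was -0.06. The occludin genes oclna and oclnb stood at -0.18 and -0.21, and lsr and ildr1a, which encode proteins of contacts where 3 cells meet, at -0.22 and -0.21. Also listed were ildr1b and ildr2 at -0.23 and -0.02, and marveld2a and marveld2b at -0.22 and -0.05. None of these genes passed. The scaffold genes TJP1 (1 of 2), tjp2a, tjp2b and tjp3 stood at 0.14, -0.12, 0.00 and -0.09. The highest members were the polarity gene crb2a at 0.30 (SE 0.10, adjusted p = 0.146) and the adhesion molecule gene jam3a at 0.24 (SE 0.20, adjusted p = 0.529). At 24 hpf 0 of 28 passed by limma, where 0.39% of all rows tested were called. At an unadjusted p below 0.05, 1 was higher and 0 were lower, next to 3.18% and 4.05% of all rows, and the median was 0.03.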

How the data were processed

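RNA sequencing of 12 pools of whole zebrafish embryos was used. The authors deposited 1 table per stage of normalized log2 values; the submitters' processing notes name DESeq and the build Zv9, while aligner, counter, annotation and versions are not given in the sources. From the values, each was floored at 1 before the log, and its row's median over 6 libraries was subtracted. Total depth is unknown; steps between low values put 1 read at 0.881 to 1.10 normalized units per library at the 15-somite stage and at 0.940 to 1.04 at 24 hpf, but only 44.0% to 57.1% of low values came out whole within 0.002 read, so no count test was run. The binary step of the stored numbers gave each row's level class before centring (4 classes), and varying rows at 16 or above were tested, 18424 and 18970. Simulated data for each stage held 200 changed rows and noise drawn independently for each value. For the earlier and later stage, 94.9% and 95.4% of rows got their true class. The fit recovered 69.7% and 66.7% of log2 changes of 1 and 85% and 95.9% of log2 changes of 2. Of its calls, 7.23% and 4.22% fell on unchanged rows. Shifts shared by many rows were not simulated, so these rates may not hold for the deposited values.

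The genotype comparison of a stage used limma 3.58.1 (R 4.3.3), without a block, with the prior spread estimated within level classes, Benjamini-Hochberg adjustment over all rows tested and two-sided tests; stages were compared by an interaction over all 12 libraries. Nothing in the labels says that the pools came from separate crosses or days, so p-values measure the spread between these libraries, which may be technical. No sequencing batch is given in the labels. Members and gene lists were chosen with earlier results of these data known. The genes named by rule were cldn5b and cldn5a, claudins called at either stage, and the epidermal claudins. To these were added the 3 largest rises and falls per stage among other tested claudins whose groups did not overlap. Lists are described by counts and medians. Other claudins and uncalled members of the lists were also named, outside this rule and with their values known. Alternatives were other level filters, quantile normalization, 1 prior spread, all 12 libraries in one fit, a replicate block at 24 hpf and leaving out each library. Another pseudocount was not tried, since the centred values hold no level.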

Additional observations from a re-analysis of the deposited data

Results flagged for a closer look

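The change of the cldni genotype difference between the stages passed limma's interaction test over all rows tested at both stages, where 3.73% of all 17718 rows passed. The call was lost when any 1 of 10 of the 12 libraries was left out (adjusted p 0.0523 to 0.0880). It was also lost with 1 prior spread (adjusted p = 0.0636). Stage and rearing temperature differed together and cannot be told apart here. At 24 hpf minus the 15-somite stage the change was 0.32 on the log2 scale (SE 0.07, adjusted p = 0.0337), with a difference of -0.31 at the 15-somite stage, where all 3 homozygous libraries lay below all 3 heterozygous ones, and 0.00 at 24 hpf.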

How the results depend on the processing

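The fall of cldn5b kept its direction and passed under each alternative run at either stage, with differences of -3.70 to -3.29 and -2.66 to -2.49 outside the leave-one-out fits. The number of claudins called at the 15-somite stage, 3, was 1 with 1 prior spread (cldn5b), 2 without het 1 and 1 when any other library was left out. All rows called at that stage, 868, were 302 with 1 prior spread, 2008 with all 12 libraries in one fit, and 161 to 627 with 1 library left out (161 without het 2, 331 without het 3, 337 without hom a, 442 without hom b and 535 without hom 2). At 24 hpf the 74 rows called were 48 with the stricter filter (the highest level class), 41 with 1 prior spread, and 25 to 52 with 1 library left out (25, 28 and 35 without het 3, het 1 and het 2, and 49 and 48 without hom 1 and hom 2), while the claudin count stayed at 1. The replicate block at 24 hpf gave 36 calls, cldn5b among them. Same-numbered libraries correlated at 0.116, 0.0129 and 0.00409 in their deviations. Both hom 1 and hom 2 correlated best with the heterozygous library of their own number, and hom 3 with het 2 (0.0906). These values do not settle whether same-numbered libraries belong together. No paired analysis was possible at the 15-somite stage because the columns do not carry all replicate numbers. For the difference between stages, 2 claudins were called with the stricter filter (cldnb and cldni), 0 with 1 prior spread (7 at an unadjusted p below 0.05 by limma), and 0 to 1 with 1 library left out, against 1; the change for cldn5b ran from 0.70 to 1.47, and the 661 rows called were 273 with 1 prior spread and 235 to 723 with 1 library left out (435, 308 and 383 without hom a, hom b and het 2 of the 15-somite stage; 272, 250, 357, 235 and 335 without hom 1, hom 2, het 1, het 2 and het 3 of 24 hpf). The cause of these changes was not tested. Calls of single genes outside the claudin family, such as the epidermis markers, were not followed through these alternatives. With 3 libraries per genotype and no counts, small changes in claudins of low level were out of reach.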
